A study of Homo sapiens with 15 samples.

Results

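SCC13 is a cell line from a human squamous cell carcinoma of the skin, and SCC13-TLR4 is the population of it that carries a plasmid for Toll-like receptor 4 (TLR4). The gene expression of SCC13-TLR4 cells kept for 24 h with 10 μg/ml ultrapure LPS (4 arrays) was compared with that of untreated SCC13-TLR4 cells (3 arrays). The 7 arrays were chosen by their sample labels out of 15 in the series. The other 8 arrays are labelled as SCC13-pUNO cells, which carry the plasmid without TLR4, untreated or with the same LPS (4 arrays each). Both groups of SCC13-TLR4 cells carry pUNO-TLR4GFP, were selected with blasticidine and were grown in DMEM with fetal calf serum. The methods describe the line as a transfected population sorted for its brightest GFP signal, and SCC13 itself as a line without TLR4 expression. The arrays are therefore samples of 1 transfected line. The labels do not say whether replicates came from separate passages, so that p-values measure the spread between these samples, which may be technical. It is not stated either whether serum was present together with LPS.

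LPS, a lipid of the outer membrane of Gram-negative bacteria, is passed by CD14 to the complex of TLR4 and MD-2, which is encoded by LY96. The occupied complex signals through MYD88 and TIRAP to IRAK and TRAF6, which activate NF-kB and the MAP kinases, and through TICAM1 (TRIF) to interferon regulatory factors. In keratinocytes the known transcripts of this pathway include chemokines, IL6, inhibitors that switch NF-kB off again, and antimicrobial peptides. Many of these transcripts peak within the first hours, so a measurement at 24 h describes a late state.

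With LPS, no probe of SCC13-TLR4 cells passed an adjusted p under 0.05 (limma, 0 of 22426 probes, 0.0%), and the smallest adjusted p was 0.9999. The receptor complex was measured in both groups, and TLR4 differed by a log2 fold change of -0.08 (SE 0.08). The transcripts of NFKBIA, SOD2 and CXCL2, which NF-kB is known to induce, differed by -0.08, -0.07 and 0.01, and 95% intervals of all 3 lay below a log2 difference of 1, that is below a doubling, as did 93.6% of all probes. At an unadjusted p under 0.05 there were 550 probes (2.45%), 367 higher with LPS (1.64%) and 183 lower (0.816%), where 5% would pass if no probe differed. With the brightest probe of each gene, 252 members of the 16 gene lists described here were tested. FOS, a subunit of AP-1, was the only member with an unadjusted p under 0.05, against 1.41% of all genes. Other probes of CDH13, PFKFB3 and SPRR2D had such a p as well. Interferon-stimulated genes lay below 0 in 26 of 28 cases with the slide in the fit and in 13 of 28 without it. Among all genes above background on all 7 arrays, 6887 of 11698 lay below 0 with the slide in the fit.

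Levels are given as the log2 intensity over the 75th percentile of the same array, so that 0 is a spot as bright as this percentile. Differences are log2 fold changes of LPS-treated over untreated cells with the slide as a factor. Levels of different genes come from different probes and were not set against each other. The arrays lay on 2 slides. Untreated replicate 1 and LPS replicates 1 and 2 were on slide 1, and untreated replicates 2 and 3 and LPS replicates 3 and 4 were on slide 2. Arrays of the same slide correlated with r from 0.985 to 0.995 across probes, and arrays of different slides with r from 0.973 to 0.977, whether or not they shared the treatment. The slide accounted for 55.0% of the variance over 21018 probes and LPS for 8.67% after it. The remaining 36.3% was spread over 4 residual degrees of freedom. The share of LPS, with 1 degree of freedom, was thus no larger than the mean share of a residual one. The median absolute difference was 0.28 between the slides and 0.07 between LPS-treated and untreated cells. On untreated replicate 1, 231 of 980 spots of a marked area that were bright on the other 6 arrays were dark, and all spots of the area were left out on that array.

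The keratinocyte character of the line was measured first. Of 10 keratinocyte markers, 9 were well above background on all 7 arrays, among them KRT5, KRT14, TP63 and DSG3, and the exception was KRT6A. The simple epithelial markers KRT8, KRT18 and EPCAM were above background on all arrays as well. Of 6 fibroblast markers none was above background on all arrays and 5 were on none. PTPRC, CD68 and CSF1R of 6 leukocyte markers, PECAM1, VWF and CDH5 of 4 endothelial markers, PMEL of 4 melanocyte markers, and the haemoglobin gene HBB were above background on all 7 arrays. The summed linear level of the leukocyte markers overlapped between the groups (1.16 to 1.35 untreated and 1.08 to 1.65 with LPS, in units of the 75th percentile).

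TLR4 was highly expressed on all 7 arrays. Its level was 3.14, 3.04 and 3.07 in untreated cells and 3.08, 3.19, 2.84 and 3.02 in LPS-treated cells. The 2 groups overlapped, and the fold change was 0.949 with a 95% interval from 0.824 to 1.09 (two-sided exact permutation test, p = 0.686, n = 3 and 4). On the 8 arrays labelled SCC13-pUNO the TLR4 level lay between -6.40 and -3.80, except on the array labelled untreated replicate 2, where it was 3.04. This array went against its label in the targeted gene. It does not enter the fit of SCC13-TLR4 cells, and the responses of SCC13-pUNO cells printed in the text are given with it and without it.

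The co-receptors were faint but above background on all 7 arrays. MD-2 (LY96) had levels of -2.84, -3.32 and -3.02 without LPS and -2.92, -2.88, -3.23 and -3.69 with it, with a difference of -0.20 (SE 0.14). CD14, which hands LPS to the complex, had -2.40, -3.06 and -2.49 untreated and -2.04, -1.99, -2.72 and -2.21 with LPS. The groups of CD14 overlapped, with a difference of 0.34 (SE 0.18, unadjusted p = 0.11). The adaptor MYD88 stayed within 0.22 to 0.32 on the untreated arrays and within 0.18 to 0.40 on the LPS arrays, and its difference was 0.02 (SE 0.09). The adaptor TICAM1 differed by -0.07 (SE 0.07), the kinase IRAK1 by 0.05 (SE 0.10) and the ubiquitin ligase TRAF6 by -0.24 (SE 0.12). A second probe of TICAM1 went the other way, with 0.05.

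Of the 21 genes of the receptor and its adaptors, 14 could be tested. None of them had an unadjusted p under 0.05 (1.41% of all genes, 0.885% higher and 0.523% lower), their median difference was -0.07 against -0.02 over the 13001 genes tested, and the 95% interval of all 14 lay below a doubling, as it did for 96.3% of all genes. LBP, IRAK2, IRAK3, TRAF3 and TLR2 were well above background on no array, and IRAK4 was on 2 of 7.

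**Figure D1:**
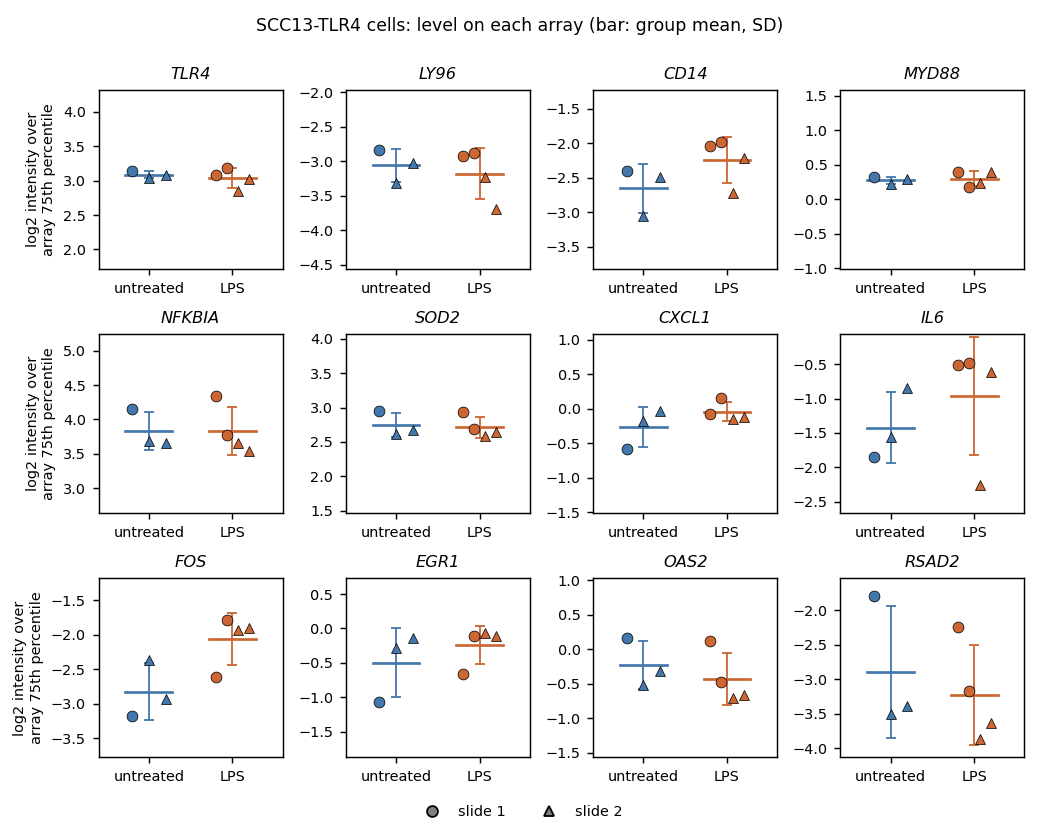
Levels of 12 genes on each of the 7 SCC13-TLR4 arrays, as log2 intensity over the 75th percentile of the array (y axis, the same span of log2 units in every panel), in untreated (blue) and LPS-treated (orange) cells. Circles are slide 1 and triangles slide 2, the line is the group mean and the bar its SD; the 2 groups overlap in every panel, and for RSAD2 the slides lie further apart than the groups.

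NF-kB is held in the cytoplasm by IkB proteins and induces its own inhibitors once it is released, so that their transcripts are a common readout of its activity. NFKBIA, the gene of IkB alpha, had levels of 4.15, 3.69 and 3.66 in untreated cells and 4.34, 3.78, 3.66 and 3.54 in LPS-treated cells. Both groups ran from about the same low level to the same high level, with the highest value of each on slide 1. The difference had a 95% interval from -0.43 to 0.27. SOD2, the mitochondrial superoxide dismutase, had 2.95, 2.61 and 2.67 untreated and 2.93, 2.69, 2.58 and 2.64 with LPS, and its fold change was 0.951 (0.818 to 1.10). The subunits NFKB1, RELA, RELB and REL differed by -0.04, 0.09, 0.11 and 0.00, with SE from 0.07 to 0.12.

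Of 25 genes of NF-kB and its feedback, 20 were tested, none at an unadjusted p under 0.05 and none with its groups apart on both slides. Being apart on both slides means that on each slide every LPS array lay on the same side of every untreated array, which held for 3.34% of probes in the higher and 3.89% in the lower direction. In the receptor list 1 of 14 genes was apart, in the lower direction (4.27% of all genes). The median of the 20 differences was -0.04, they ranged from -0.16 (TBK1) to 0.15 (ZC3H12A), and all 20 intervals lay within a log2 difference of 1 in both directions, against 94.3% of all genes and 90.4% of all probes. The spot of ZC3H12A on untreated replicate 1 was left out, so that its value rests on 6 arrays. TNFAIP3 (A20) and ICAM1, well-known targets of NF-kB, were well above background on no array, with levels of -6.38 to -4.62 and -5.87 to -5.24. BIRC3 was above background on 1 LPS array only.

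The sequences that NF-kB recognises are given here for 5 genes whose levels are described, since their transcripts are the readout for which the comparison was made. The NF-kB decamer consensus was searched on both strands in the 250 bases before the start of each gene in RefSeq promoters (GRCh38.p14). The lines print the strand of the gene from 5′ to 3′, with the decamer in capitals.
NFKBIA, chr14:35404806-35404845, minus strand: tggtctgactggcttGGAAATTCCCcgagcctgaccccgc
NFKB1, chr4:102501295-102501334, plus strand: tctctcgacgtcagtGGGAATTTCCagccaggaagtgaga
CXCL1, chr4:73869299-73869338, plus strand: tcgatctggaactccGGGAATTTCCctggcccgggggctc
CXCL2, chr4:74099249-74099288, minus strand: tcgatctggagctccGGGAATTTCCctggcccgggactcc
IL6, chr7:22727112-22727151, plus strand: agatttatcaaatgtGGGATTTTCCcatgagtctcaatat

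The windows of CXCL1 and CXCL2 hold the same decamer 79 and 78 bases before the start. In both the decamer also matched on the other strand, shifted by 1 base, and such overlapping matches are counted as separate positions. The consensus was present in 9.57% of 27305 promoters and in 11.8% of 10214 tested genes with a promoter in the table (1207 genes). It was present in 5 of 17 genes of the NF-kB list and in 3 of 6 cytokine genes, counting tested genes with a promoter in the table. The 1207 genes with the consensus had a median difference of -0.02, as did the genes without it. At an unadjusted p under 0.05, 12 of them lay higher and 5 lower. Over all 13001 genes tested 115 lay higher (0.885%) and 68 lower (0.523%), with the same lean to the higher direction. A match is a description of these letters and does not show a bound site.

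The chemokines and cytokines were mostly below the range of the array. Of 30 genes on this list 21 were not well above background in either group, CXCL8, CCL20 and IL1A among them on no array. CXCL8, the neutrophil chemokine IL-8, lay between -6.76 and -6.23 on all 7 arrays, with the highest value on an untreated array. TNF was above background on no untreated array and on LPS replicates 1 and 2, with levels of -4.56, -4.44 and -5.02 untreated and -3.81, -3.36, -4.54 and -4.93 with LPS; the LPS arrays of slide 1 were above all others.

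CXCL1, a neutrophil chemokine, had levels of -0.59, -0.18 and -0.03 in untreated cells and -0.08, 0.16, -0.14 and -0.11 in LPS-treated cells. Untreated replicate 1 was the lowest, untreated replicate 2 was also below every LPS array, and untreated replicate 3 was above all but 1 of them. The difference was 0.24 (SE 0.16), 0.63 on slide 1 and -0.02 on slide 2. The spots used on untreated replicate 1 lie in a fainter mark that was kept. This is the only untreated array of slide 1, so that without it the difference is again the -0.02 of slide 2 and no separate check. CXCL2 showed no such split, with levels of -2.31 to -1.63 untreated and -2.18 to -1.75 with LPS and a difference of 0.01 (SE 0.11).

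IL6 had levels of -1.85, -1.56 and -0.85 without LPS and -0.52, -0.48, -2.25 and -0.62 with it. LPS replicates 1, 2 and 4 were above all untreated arrays, and LPS replicate 3 was below them all. The difference was 0.40 (SE 0.51), with 1.35 on slide 1 and -0.23 on slide 2, and the fold change of 1.32 had an interval from 0.562 to 3.11 (exact permutation test, p = 0.486). The interval of IL6 thus included a doubling. The spot of IL6 on untreated replicate 1 also lies in a fainter mark that was kept. Without this spot the difference is again the -0.23 of slide 2, the only slide with both groups left. IL1B had a difference of -0.14 (SE 0.13) and LIF, a cytokine of the IL-6 family, of -0.04 (SE 0.07). The intervals of CSF1 and CXCL12 were wide, from -0.95 to 1.70 and from -4.08 to 3.39. CSF1 had its lowest levels on untreated replicate 1 (-5.08) and LPS replicate 1 (-4.15). Its difference was 0.38, and -0.44 without untreated replicate 1, which is the difference of slide 2 alone. CXCL12 had a level of -6.36 on LPS replicate 1 and of -2.48 to -1.97 on the other arrays measured. Its spot on untreated replicate 1 was left out, so that its difference is that of slide 2 alone. CSF1 was above background on 2 of 3 untreated arrays and entered the test through the LPS arrays. The median over the 9 cytokines tested was 0.00, and the intervals of 6 lay below a doubling.

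**Figure D2:**
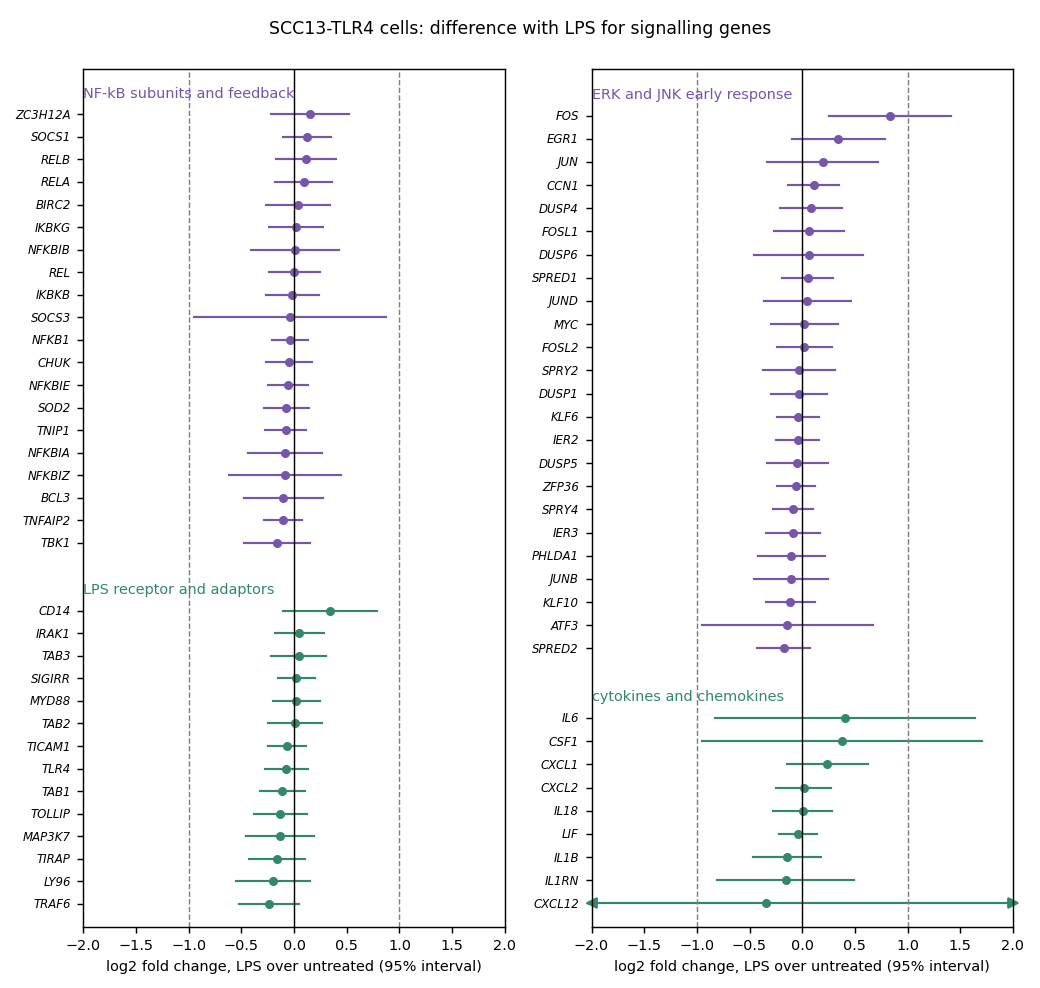
Log2 fold change of LPS-treated over untreated SCC13-TLR4 cells (point) with its 95% interval (line) for every tested gene of 4 lists, from limma with the slide as a factor. Dashed lines mark a log2 difference of 1 in each direction; the intervals of all genes of the receptor and NF-kB lists lie between them, the interval of FOS lies above 0, and arrowheads mark the interval of CXCL12, which ends outside the axis at -4.08 and 3.39.

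Antimicrobial peptides were measured for 3 of 19 genes. The antiprotease SLPI had a difference of -0.34 (SE 0.17), the beta-defensin DEFB4A of -0.30 (SE 0.30) and complement C3 of -0.02 (SE 0.09). S100A9, LCN2 and CAMP were above background on no array.

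FOS encodes an immediate early transcription factor that is transcribed after ERK signalling. Its level was -3.18, -2.37 and -2.93 in untreated cells and -2.62, -1.78, -1.93 and -1.90 in LPS-treated cells. LPS replicates 2, 3 and 4 were above all untreated arrays and LPS replicate 1 was not, but within each slide every LPS array was above every untreated array. The fold change was 1.78 with a 95% interval from 1.19 to 2.66 (unadjusted p = 0.0123, adjusted p = 0.9999 in limma, higher in 11 of 12 pairs of arrays). The exact permutation test over 35 splits, which ignores the slide, gave p = 0.0857. With the background corrected by normexp the difference of 0.83 was 0.44. EGR1, induced by the same pathway, had levels of -1.07, -0.28 and -0.13 untreated and -0.66, -0.12, -0.07 and -0.11 with LPS. It was higher with LPS on each slide, by 0.68 and 0.12, with a difference of 0.34 (SE 0.18).

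The other members of the ERK and JNK list lay close to 0. Of 28 genes, 24 were tested, FOS with an unadjusted p under 0.05. FOS and EGR1 were apart on both slides in the higher direction (2.31% of all genes). SPRED2, an inhibitor of ERK signalling, was apart in the lower direction (4.27% of all genes) with -0.18 (SE 0.10). The median was -0.03, and 23 intervals lay below a doubling, FOS being the exception. The phosphatases DUSP1, DUSP4, DUSP5 and DUSP6, which ERK induces and which act against it, differed by -0.03, 0.09, -0.04 and 0.06, and JUN by 0.19 (SE 0.22). ATF3, a stress-induced factor of the CREB family, had levels of -0.12 and 0.00 on untreated replicates 2 and 3 and of -1.22, -0.40, -0.27 and -0.13 with LPS, its spot on untreated replicate 1 being left out. Its difference, which is therefore that of slide 2 alone, was -0.14 (SE 0.32), and other probes of the gene gave -0.31 and 0.16.

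Interferon-stimulated genes are switched on by the factor complex ISGF3 once a cell has sensed type I interferon, which TICAM1 signalling can induce. IFNB1 itself was above background on no array. Of 31 genes on the list 28 were tested. Their differences ran from -0.63 (MX2) to 0.07 (HERC5), with a median of -0.08 against -0.02 over all genes. Of the 28, 26 lay below 0, as did 6887 of the 11698 genes above background on all 7 arrays. Without the slide in the fit the median of the list was 0.01 and 13 of its genes lay below 0. With the replicate number as a block in place of the slide the median was 0.05 and 11 lay below 0. The direction of the list therefore depended on the slide factor. None had an unadjusted p under 0.05. RSAD2, IFI44L, OAS2 and IFI35 were apart on both slides in the lower direction, and none in the higher. They are 4 of 23 members with values above background on all arrays, against 4.15% of 11698 such genes (4.27% of all genes). MX2 was apart as well but was above background on only 3 of 4 LPS arrays, so that it entered the test through the untreated arrays. Genes of this list share their regulation and are not independent of each other.

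RSAD2, the antiviral protein viperin, had levels of -1.80, -3.51 and -3.40 without LPS and -2.24, -3.18, -3.87 and -3.64 with it. Untreated replicate 1 was the highest array, and the slides were further apart than the groups. The difference was -0.91 on slide 1, -0.31 on slide 2 and -0.55 (SE 0.26, unadjusted p = 0.075) in the fit. OAS2, an oligoadenylate synthetase, had 0.16, -0.51 and -0.32 untreated and 0.12, -0.48, -0.70 and -0.67 with LPS, with a difference of -0.30 (SE 0.15), and its other probes lay between -0.73 and -0.18. OAS1 had -0.51 (SE 0.23) and IFI35 -0.20 (SE 0.09). ISG15, a ubiquitin-like protein, differed by -0.01 (SE 0.12), so that the lower values came from part of the list. All 28 intervals lay below a doubling and 24 within a log2 difference of 1 in both directions.

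The core of the interferon-stimulated response element, GAAANNGAAA, which ISGF3 binds, is printed for 4 genes because the list was put together by response to interferon and the element shows what its members share. It was searched on both strands in the same 250 bases.
IFIT1, chr10:89392492-89392531, plus strand: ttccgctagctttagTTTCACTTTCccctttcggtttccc
ISG15, chr1:1013375-1013414, plus strand: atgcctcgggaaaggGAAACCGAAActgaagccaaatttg
OAS3, chr12:112938316-112938355, plus strand: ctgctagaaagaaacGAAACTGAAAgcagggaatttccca
IFI44L, chr1:78620269-78620308, plus strand: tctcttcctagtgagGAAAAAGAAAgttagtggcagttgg

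In IFIT1 the element lay on the strand opposite to the gene, so that the capitals are its reverse complement. The core was present in 11 of 20 tested genes of the list with a promoter in the table (55%), against 2.29% of the 10214 tested genes and 3.07% of all promoters. The window of OAS3 also holds an NF-kB decamer, without overlap with the core. The 11 genes with the core had a median difference of -0.04 and the 9 without it of -0.08, and IFI44L was the only one of the 11 apart on both slides in the lower direction.

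The response of SCC13-TLR4 cells was set beside that of SCC13-pUNO cells to the same LPS, to ask whether the plasmid TLR4 changes it. No probe differed in its response between the lines at an adjusted p under 0.05 (limma, 0 of 22755, 0.0%, 417 or 1.83% at an unadjusted p under 0.05; 428 or 1.88% without the array labelled SCC13-pUNO untreated replicate 2). In SCC13-pUNO cells alone LPS likewise gave 0 of 22755 probes (898 at an unadjusted p under 0.05, 3.95%; 832 or 3.66% without that array). FOS lay at 0.86 (SE 0.39) in SCC13-pUNO cells, or 1.03 without that array, and at 0.83 in SCC13-TLR4 cells. In the fit over all 15 arrays the difference of the responses was -0.08 with SE 0.58 (unadjusted p = 0.887), too wide to call them alike, and -0.25 without that array. EGR1 had 0.13 (SE 0.27) in SCC13-pUNO cells, which was 0.33 without it.

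The interferon list had a median of 0.10 in SCC13-pUNO cells with 5 of 28 genes below 0, or 0.06 with 9 below 0 without the array labelled untreated replicate 2, against -0.08 and 26 in SCC13-TLR4 cells. The response in SCC13-TLR4 cells was the lower one for 27 of 28 genes with a median difference of -0.16, or for 24 with -0.10 without that array, against -0.02 over all genes either way. None of the 28 differences had an unadjusted p under 0.05. RSAD2 had the values 0.74 (SE 0.41) and -0.55, with a difference of -1.22 (SE 0.60, unadjusted p = 0.0648 in limma). Without that array RSAD2 had 0.65 in SCC13-pUNO cells and a difference of -1.13. IL6 lay at -0.09 (SE 0.41) and 0.40, with a difference of 0.51 (SE 0.60), or at -0.24 with a difference of 0.65 without that array. Within the NF-kB list the only difference with an unadjusted p under 0.05 was that of SOCS1, a suppressor of cytokine signalling, at -0.31 and 0.13 (unadjusted p = 0.0115, adjusted p = 0.9999 in limma), or -0.25 in SCC13-pUNO cells without that array. Among the cytokines it was that of IL1B, at 0.29 and -0.14 (unadjusted p = 0.0344, adjusted p = 0.9999 in limma), or 0.35 in SCC13-pUNO cells without it.

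**Figure D3:**
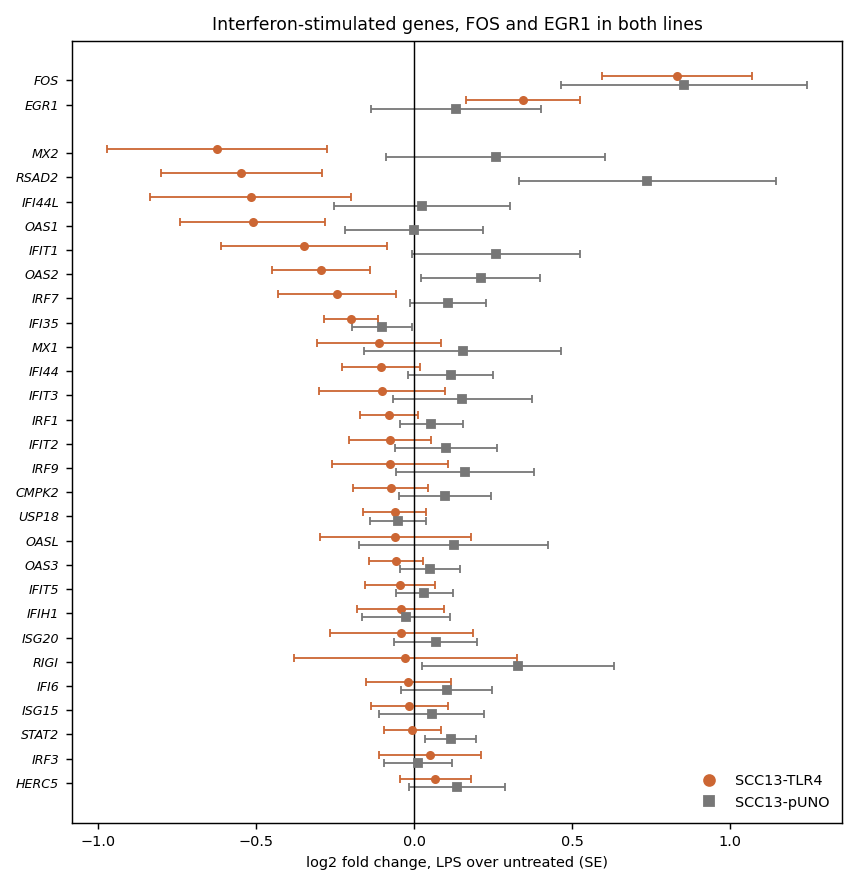
Log2 fold change of LPS-treated over untreated cells (x axis) with its SE for 27 of the 28 interferon-stimulated genes tested, FOS and EGR1, in SCC13-TLR4 cells (orange circles) and SCC13-pUNO cells (grey squares, the array labelled untreated replicate 2 included). FOS lies at 0.83 and 0.86 in the 2 lines, and the interferon-stimulated genes shown lie below 0 for 25 of 27 in SCC13-TLR4 cells and for 4 of 27 in SCC13-pUNO cells.

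Proliferation and differentiation were compared because the study asks how TLR4 bears on the growth of keratinocytes. Of 28 proliferation genes 27 were tested, none at an unadjusted p under 0.05. Their median was -0.04, 21 of them lay below 0 (15 without the slide in the fit), and all 27 intervals lay within a log2 difference of 1. Of all genes above background on all 7 arrays, 6887 of 11698 lay below 0 with the slide in the fit. MKI67, the gene of the Ki67 antigen, had levels of 3.79, 3.28 and 3.15 without LPS and 3.46, 3.93, 3.35 and 3.31 with it. The groups overlapped, with a difference of 0.03 (SE 0.13), and the probes of the gene lay between -0.03 and 0.07. PCNA, the clamp of DNA polymerase, had -0.11 (SE 0.09), and the cell cycle inhibitor CDKN1A had 0.16 (SE 0.11).

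The suprabasal keratin KRT10 had levels of 4.00, 4.33 and 4.38 untreated and 4.18, 3.94, 4.42 and 4.29 with LPS, which overlapped, and a difference of 0.03 (SE 0.09). The cornified envelope protein IVL differed by -0.05 (SE 0.18) and the basal keratin KRT14 by 0.09 (SE 0.14). Among 26 differentiation genes 16 were tested, with a median of -0.02, and FLG and LORICRIN were not among the 16, being above background on 2 and 0 of 7 arrays. A second, fainter probe of SPRR2D, a small proline-rich protein of the cornified envelope with close relatives in its family, gave 0.73 (SE 0.16, unadjusted p = 0.00353, adjusted p = 0.9999 in limma). It was above background on 5 of 7 arrays, so that it entered the test through the arrays of a single group and its p is no support by itself. The brighter probe of the gene gave 0.15 (SE 0.19). KRT4, a mucosal keratin, had the largest value of the list with 1.43 (SE 0.73). Its level was -6.67 on untreated replicate 1 and from -3.91 to -2.98 on the other 6 arrays. Without that array the difference was 0.07, which is that of slide 2 alone. KRT4 entered the test through the LPS arrays. All 15 basal genes were tested, among them KRT15, a keratin of basal cells, with -0.18 (SE 0.07, unadjusted p = 0.0517 in limma) and the cadherin CDH3 with -0.09 (SE 0.07). Both were apart on both slides in the lower direction. They are 2 of 14 basal genes above background on all arrays, against 4.15% of 11698 such genes.

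Genes of migration had a median of 0.02 over 17 of 24 tested. The collagenase MMP1 differed by -0.12 (SE 0.10), MMP9 by 0.00 (SE 0.11), and CDH13 (T-cadherin) by 0.02 (SE 0.11). The other probe of CDH13 gave 0.28 (SE 0.09, unadjusted p = 0.0252, adjusted p = 0.9999 in limma). TFPI2, an inhibitor of serine proteases of coagulation, differed by -0.26 (SE 0.31).

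Lists of the general state of the cells held no member with an unadjusted p under 0.05 at its brightest probe. The integrated stress and unfolded protein response had a median of -0.10, with 17 of 18 genes below 0 (14 without the slide in the fit). Over all genes above background on all 7 arrays, 6887 of 11698 lay below 0 with the slide in the fit. The stress factor ATF4 lay at -0.19 (SE 0.15), DDIT4, an inhibitor of mTORC1, at -0.23 (SE 0.15), and the chaperone HSPA5 at 0.03 (SE 0.07). In SCC13-pUNO cells the median of this list was 0.01, or -0.0028 without the array labelled untreated replicate 2. Cholesterol synthesis had a median of 0.05 with 13 of 16 genes above 0. Without the slide in the fit 1 of the 16 lay below 0. Without LPS replicate 1 the median was -0.01 and 9 lay below 0. In the fit over all 15 arrays the median was 0.06 in SCC13-TLR4 cells, against 0.18 in SCC13-pUNO cells. Without the array labelled untreated replicate 2 they were 0.06 and 0.16. The heat shock list had a median of 0.01 over 12 genes, and the hypoxia and glycolysis list of -0.01 over 14. The glucose transporter SLC2A1 lay at -0.11 (SE 0.07) and PDK1 at -0.12 (SE 0.08), both apart on both slides in the lower direction. They are 2 of the 14, against 4.15% of the 11698 genes above background on all arrays. A fainter probe of PFKFB3, a regulator of glycolysis, gave 0.28 (SE 0.09, unadjusted p = 0.0202 in limma) and the brighter one -0.07 (SE 0.08).

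**Figure D4:**
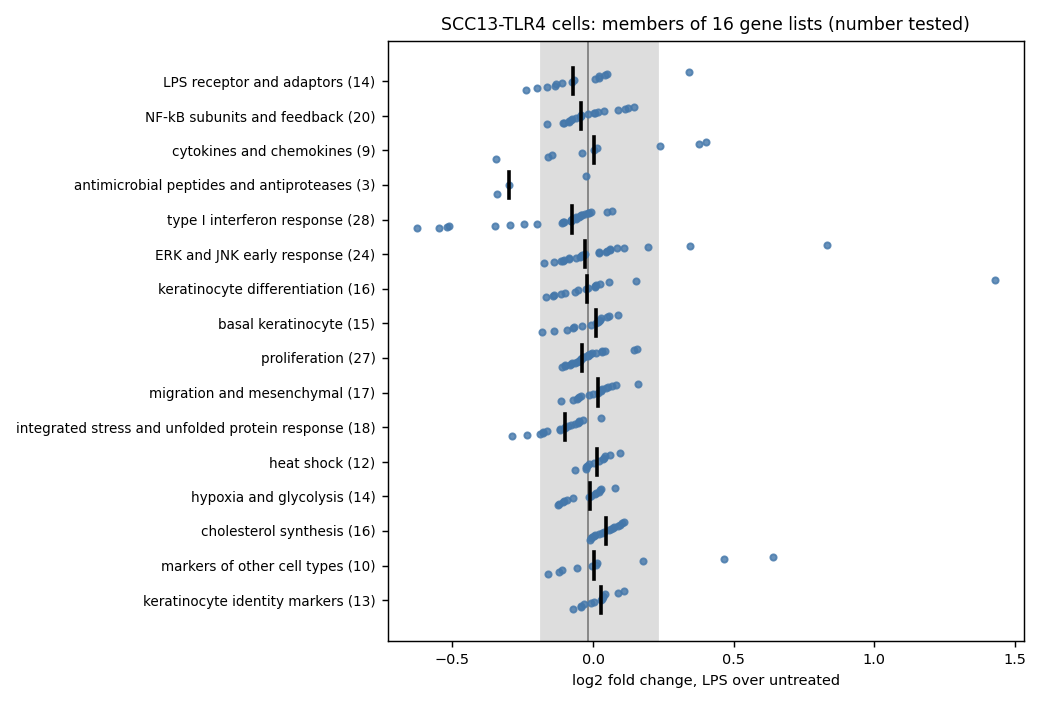
Log2 fold change of LPS-treated over untreated SCC13-TLR4 cells (x axis) for the tested members (blue points) of 16 gene lists, with the number tested in brackets and the list's median as a black bar. The grey band spans the 5th to the 95th percentile of all 13001 genes (-0.18 to 0.23) and the grey line is their median; FOS at 0.83 and KRT4 at 1.43 are the points farthest to the right, and MX2 at -0.63 the one farthest to the left.

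Genes were also ranked by their unadjusted p among those with values on all 7 arrays, above background on all of them and apart on both slides. The ranking used the contrast itself, so that the values describe these arrays. For the same reason the p-values of these genes, and groups that do not overlap, are no separate support. The 10 genes ranked first in the higher direction were GOLGA6L6, PDE6G, ABR, CARD9, ZNF497, TMPRSS2, MCM3AP-AS1, AOC3, CEL and SPRN, with differences from 0.30 to 0.79. In the lower direction they were LRATD1, MGC27382, TIMP3, OAZ3, CPLANE2, EYA1, EMILIN3, OSGIN2, OR7E91P and PLEKHO1, with differences from -0.60 to -0.33. None belongs to the 16 lists.

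TIMP3, a matrix-bound inhibitor of metalloproteinases, had levels of 0.45, 0.42 and 0.31 in untreated cells and -0.15, 0.04, 0.02 and 0.04 in LPS-treated cells. All LPS arrays were below all untreated arrays. The fold change was 0.754 with an interval from 0.649 to 0.876 (unadjusted p = 0.00358, adjusted p = 0.9999 in limma), and the exact permutation test gave p = 0.0286, the smallest that 35 splits allow. TIMP3 was picked by this same contrast, so that neither test is separate support for it. In SCC13-pUNO cells its log2 fold change was -0.11 (SE 0.24), and 0.04 without the array labelled untreated replicate 2.

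CARD9, an adaptor of C-type lectin receptors upstream of NF-kB, had levels of -3.81, -2.98 and -3.17 untreated and -3.26, -2.94, -2.69 and -2.61 with LPS. The groups overlapped when the slides were not separated, and the difference was 0.54 (SE 0.12), with -0.15 for another probe of the gene and 0.19 for the same probe with the background corrected by normexp. AOC3, an amine oxidase that serves as an adhesion molecule on endothelium, had -2.46, -2.40 and -2.49 untreated and -2.04, -2.16, -2.10 and -2.19 with LPS, without overlap, and a difference of 0.32 (SE 0.08). PDE6G, a subunit of the photoreceptor phosphodiesterase, had -3.50, -3.22 and -3.11 untreated and -2.79, -2.30, -2.47 and -2.62 with LPS, also without overlap. Its difference of 0.75 (SE 0.15) was 0.35 with the background corrected by normexp, and its level lay far below the 75th percentile on every array.

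For most genes the intervals were narrow against a doubling. The median half-width of the 95% interval was 0.26 over 13001 genes, the intervals of 94.3% lay within a log2 difference of 1, and 189 of 22426 probes (0.843%) had an absolute difference over 1, none of them at an adjusted p under 0.05. For faint genes the limit was set by the background: 13 of the 30 cytokines listed were above background on no array, and for these no difference could be detected with these arrays.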

How the data were processed

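Total RNA of the 15 samples was labelled with Cy3 and hybridised to Agilent SurePrint G3 Human arrays, 1 sample an array. Per the file headers, each deposited intensity was made by the authors with Feature Extraction 10.7.3.1, which subtracts the background and corrects the spatial trend of an array, with no normalization between arrays. The values of the deposited series matrix equalled these intensities (944640 of 944640). The headers name hg19 as the build of the array design.

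Here, log2 intensities were taken minus the 75th percentile of the array. Spots marked as outliers were left out on their array, as were those of the dark streak on untreated replicate 1, and replicate spots were averaged to 1 value a probe. A probe entered the test when the software called it well above background on all arrays of either group, which held for 22426 of 50599. Probes were named through their accessions with RefSeq symbols (GRCh38.p14), 28174 in all. For a gene with several tested probes the one with the highest mean level was used. limma 3.58.1 in R 4.3.3 fitted group and slide over 7 arrays for SCC13-TLR4 cells. It fitted 4 groups and slide over 15 arrays for the response of SCC13-pUNO cells and the difference between the lines. Benjamini-Hochberg adjustment was over all probes tested. The methods state an adjusted p under 0.05 and an absolute log fold change over 2 and name no test, and no probe passed both. Single genes were also compared by two-sided exact permutation tests, with Python 3.11.15 and scipy 1.17.1. The code was tested on simulated data.

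Named genes were a fixed set of the pathway and of keratinocyte markers, up to 4 members of each list by moderated t, and up to 10 genes in each direction by unadjusted p; members given beside them to complete a family or a count were chosen after their values were seen. The comparison, the members and the lists were chosen with earlier results of these data known. Alternatives changed the slide factor, the arrays in the fit, the pairing, the background correction, the normalization, the filter on dim probes, the flagged spots, array weights, the moderation and the probe of a gene, and left out each array in turn. The number of arrays limits the precision. Some single genes are counted in the lists but not reported here.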

Additional observations from a re-analysis of the deposited data

Results flagged for a closer look

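In 96 groups of 4 LPS-treated SCC13-TLR4 arrays, 1 for each named gene tested, 3 held an array that stood apart from the other 3, where chance alone flags 1 group in 20, or 4.8. For IL6, LPS replicate 3 lay at -2.25 and the other LPS arrays between -0.62 and -0.48. For EGR1, LPS replicate 1 lay at -0.66 and the others between -0.12 and -0.07. For TIMP3, LPS replicate 1 lay at -0.15 and the others between 0.02 and 0.04. The groups of 3 untreated arrays were not looked at in this way.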

How the results depend on the processing

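No probe passed an adjusted p of 0.05 for LPS in SCC13-TLR4 cells under any of 21 alternatives (limma), nor for the difference between the lines under any of 24. Without an adjustment, the number of probes with a p under 0.05 moved between 312 (normexp) and 1656 (array weights), against 550, and from 417 to 916 when 1 array was left out, at untreated replicate 1 and LPS replicate 4. The smallest adjusted p was 0.154 for LPS in SCC13-TLR4 cells, without untreated replicate 2, and 0.0855 for the difference between the lines, without SCC13-pUNO LPS replicate 2. The replicate block gave 0 calls with the slide and 0 without it (1127 and 856 at an unadjusted p under 0.05). The deviations of arrays with the same number correlated at 0.58, -0.40 and 0.44, and at -0.24, 0.27 and -0.35 after the slide was removed. Replicates 1 and 3 share a slide between the groups and replicate 2 does not. These correlations therefore cannot decide whether the numbers pair the samples.

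Of 2106 alternative values of the 96 named genes, 37 moved by more than the spread between replicates, 15 of them under normexp, which lowered FOS to 0.44. Of these genes 34 turned sign at least once, none of them called. FOS lay between 0.44 and 1.00, RSAD2 between -0.67 and -0.19, IL6 between -0.23 and 0.97 and TLR4 between -0.17 and -0.02. The median of the interferon list lay between -0.13 and 0.05, above 0 in the fits without the slide factor, and that of the NF-kB list between -0.07 and 0.06. Leaving out the fainter marks on untreated replicate 1, an alternative chosen after seeing the data, turned CXCL1 to -0.02 and IL6 to -0.23. Probes near the background and the number of arrays limit what could be detected. Slide and replicate spread were not separated from the time or place of culture, which the labels do not give.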
